A study of Rattus norvegicus with 18 samples.

Results

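Acyl-CoA thioesterases and coenzyme A hydrolases were measured in extensor digitorum longus, a muscle of mostly fast fibres in the hindlimb, from 18 adult female Sprague-Dawley rats of the second filial generation (F2). The 8 genes were chosen by name from these 2 enzyme families: Nudt7, Nudt19 and Nudt8 of the coenzyme A hydrolases, and Acot1, Acot2, Acot8, Acot9 and Acot13 of the thioesterases. Of the 8, 7 had an array probe set assigned to that gene alone, and all 7 passed the filter on low mean intensity and were tested among 12642 genes; Nudt8 was not analysed here. Nudt7 and Acot1 were picked because they rose with the females' own high-fat diet, in a comparison whose lineage is not specified. Every value of the 7 genes for the own diet is therefore a description with no test. The founding grandfathers (F0) were fed either chow or a high-fat diet. The F2 females themselves ate chow or, for 12 weeks, a diet with 42/45% of its energy from fat. Groups are written as the grandfather's diet followed by the female's own diet: chow/chow (5 animals), chow/high-fat (5 animals), high-fat/chow (4 animals), and for both diets high-fat, high-fat/high-fat (4 animals). The high-fat lineage means granddaughters of high-fat-fed males. The labels do not give how many males founded each lineage. Relatives within a lineage were counted as independent animals, which can make p-values of the grandpaternal diet too small. Levels of the 7 genes are log2(deposited intensity + 16) after quantile normalization, given for each animal or as the range of a group. Differences are given with the standard error (SE) of the fit, which is not an SD over animals. Levels of different genes come from different probes and cannot be set against each other.

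Coenzyme A carries fatty acids in activated form, as acyl-CoA, and each compartment of the cell holds its own limited supply. Acyl-CoA thioesterases cut the bond to the acyl group and release a free fatty acid and coenzyme A. Coenzyme A hydrolases of the Nudix family cut the carrier itself, within its diphosphate bond, and so lower the supply. Nudt7 and Nudt19 work in peroxisomes and Nudt8 in mitochondria. Acot1 is the cytosolic and Acot2 the mitochondrial thioesterase for long-chain acyl-CoA; the 2 proteins are close copies, and both genes are known targets of the fatty-acid sensor PPARα. Acot8 is peroxisomal, Acot9 mitochondrial, and Acot13 associates with mitochondria.

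The stretches of 250 bases upstream of the annotated start are shown for the 3 genes with the highest levels under the own high-fat diet relative to chow. They come from RefSeq (assembly GRCr8, which held entries for all 8 genes) and are written 5′ to 3′ on the gene's strand. Capitals mark exact matches, on either strand, to any of 7 motifs searched. These were the nuclear receptor site AGGTCA, a spaced pair of AGGTCA and AGGTCA with any 1 base between them, the kind of site PPARα uses, a spaced pair of GGGTCA and AGGTCA, the extended site TCAAGGTCA, the GC box CCGCCC, the CCAAT box CCAAT and the TATA box TATAAA. The single site is contained in both pairs and in the extended site.
Nudt7, chr19:59034638-59034887, plus strand: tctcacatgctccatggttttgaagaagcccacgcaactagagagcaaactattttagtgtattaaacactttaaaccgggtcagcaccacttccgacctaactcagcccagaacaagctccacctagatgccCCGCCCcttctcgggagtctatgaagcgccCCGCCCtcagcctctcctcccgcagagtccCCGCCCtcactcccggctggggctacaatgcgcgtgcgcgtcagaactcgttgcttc
Acot2, chr6:109342590-109342839, plus strand: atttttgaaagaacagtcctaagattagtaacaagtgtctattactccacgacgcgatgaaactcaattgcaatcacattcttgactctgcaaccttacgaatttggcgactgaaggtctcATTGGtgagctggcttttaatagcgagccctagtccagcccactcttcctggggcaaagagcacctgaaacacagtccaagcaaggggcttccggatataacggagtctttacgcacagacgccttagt
Acot1, chr6:109367024-109367273, plus strand: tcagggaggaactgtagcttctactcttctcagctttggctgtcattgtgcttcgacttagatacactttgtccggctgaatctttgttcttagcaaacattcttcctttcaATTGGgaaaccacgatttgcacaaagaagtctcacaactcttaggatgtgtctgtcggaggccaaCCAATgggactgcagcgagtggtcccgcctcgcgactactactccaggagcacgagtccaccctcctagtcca
Acot8, chr3:173962189-173962220, minus strand: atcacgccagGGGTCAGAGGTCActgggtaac
The Nudt7 stretch held 3 GC boxes, a number reached by 8.09% of 27457 promoters searched in the same window, while 32.4% held at least 1. They began at positions -117, -87 and -57 relative to the start. The Acot1 stretch held 2 CCAAT boxes and the Acot2 stretch 1, and 34.3% of promoters held at least 1. Neither the single site (13.7% of promoters), its extended form (0.368%), the TATA box (13.1%) nor either spaced pair was found in the 250 bases of Nudt7, Acot1 or Acot2. Among the 8 genes, a spaced pair was found only for Acot8, whose short stretch is shown for this reason. It matched the pair of GGGTCA and AGGTCA, present in 0.0364% of promoters. That pair was added to the search after the Acot8 sequence was seen, so the match and its rarity are no evidence. The pair of AGGTCA and AGGTCA, present in 0.0546% of promoters, was found for none of the 8 genes. These matches describe letters in a short window and say nothing about binding. Acot2 and Acot1 are neighbours on chromosome 6, with starts 24434 bases apart on GRCr8, followed by Acot4, Acot3, Acot5 and Acot6.

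Median deposited intensity per array ran from 55.02 to 73.97. The fast-fibre markers Actn3 and Tnnt3 had mean normalized intensities of 8114 and 7816, and neither was below 7315 on any array; 5 of 9 listed fast-fibre markers had a probe set of their own. Slow-fibre markers varied between animals of 1 group: the sum of 7 markers ran from 8659 to 16648 in chow/chow, 4915 to 17558 in chow/high-fat, 4084 to 13080 in high-fat/chow animals and 3590 to 14496 in high-fat/high-fat. No slow-fibre marker was at 0. High-fat/high-fat replicate 4 stood apart in the liver marker Alb, with a deposited intensity of 976.5 against 1.8 to 184.6 elsewhere, while the liver marker Ttr read 38.4 there against 21.5 to 42.1. The same animal had the lowest slow-fibre sum, 3590. For Nudt7, Acot1, Acot2 and Nudt19, the main differences that use its group are given without it too. In whole muscle, fewer cells of a type and less RNA per cell cannot be told apart.

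The coenzyme A hydrolase Nudt7 (probe set 10808159) had a similar level in both lineages and was higher in high-fat-fed females of each. In chow/chow animals its log2 level was 8.42, 8.04, 8.02, 7.83 and 8.15, and in chow/high-fat animals 8.81, 8.87, 8.41, 8.92 and 8.59. These groups touched at 1 point, where the highest chow-fed animal (8.42) exceeded the lowest high-fat-fed animal (8.41). In high-fat/chow animals it was 8.04, 8.22, 8.02 and 7.92, and in high-fat/high-fat animals 8.83, 9.06, 8.58 and 8.25. In this lineage the groups did not overlap. The own-diet difference was 0.63 log2 (SE 0.13, 95% confidence interval 0.35 to 0.91, 1.55-fold) in the chow lineage and 0.63 (SE 0.15, interval 0.31 to 0.94) in the high-fat lineage. The difference between these differences was -0.0039 log2 (SE 0.20, interval -0.43 to 0.42), an interval that leaves room for unequal responses. It was 0.29 on the deposited scale, where the own-diet difference was 0.48 in the chow and 0.77 in the high-fat lineage and all genes shifted by a median of -0.13 and 0.11. With high-fat/high-fat replicate 4 left out it came to 0.14, and its sign turned under 14 of 31 alternatives. Within columns 5 and 7 of the wells in the sample titles, which the labels do not explain, the chow-lineage difference was 0.77 and 0.61. Within columns 5, 7 and 9 the high-fat-lineage difference was 0.46, 0.21 and 1.02, each with 1 or 2 animals a group. Some well labels occur in titles of both lineages, so a shared column need not be a shared plate or run. A batch that followed lineage could not be told apart from the grandpaternal diet. Without high-fat/high-fat replicate 4, the lowest of its group, the high-fat-lineage difference was 0.77.

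**Figure D1:**
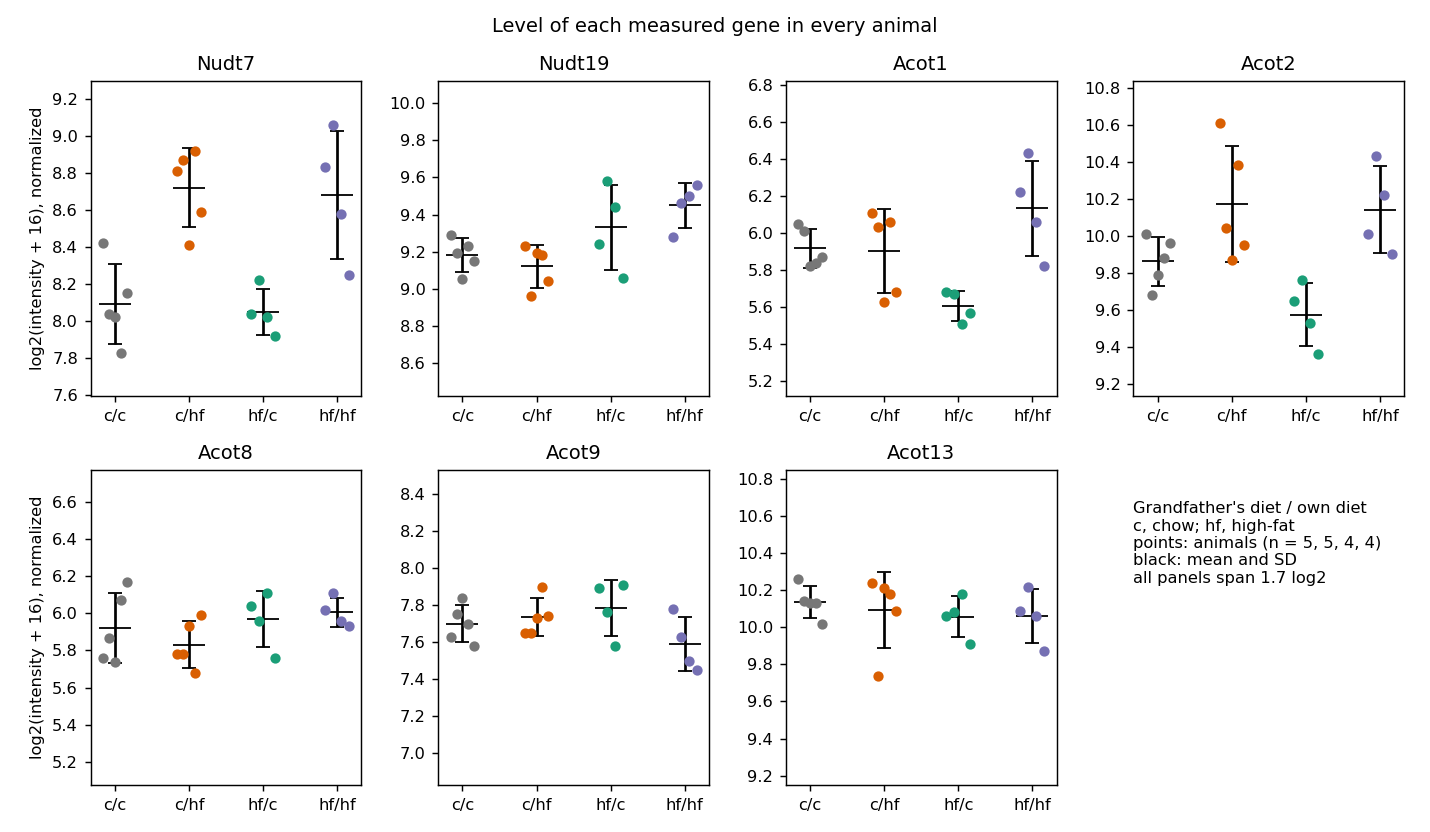
The normalized log2 level of each measured gene is plotted for every animal, by group (c, chow; hf, high-fat; grandfather's diet before own diet), with the group mean and SD in black and the same span in all panels. Nudt7 lies higher in both high-fat-fed groups, Acot1 and Acot2 are lowest in high-fat/chow, and Nudt19 in high-fat/high-fat lies above all chow/high-fat animals.

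Acot1 (probe set 10885857), the cytosolic thioesterase, gave a different picture by lineage. Its log2 level was 6.05, 6.01, 5.82, 5.84 and 5.87 in chow/chow and 6.11, 6.03, 5.63, 6.06 and 5.68 in chow/high-fat animals. These groups overlapped fully, and the own-diet difference was -0.014 (SE 0.11, interval -0.24 to 0.21). In high-fat/chow animals the level was 5.68, 5.67, 5.51 and 5.57, and in high-fat/high-fat animals 6.22, 6.43, 6.06 and 5.82. Every high-fat-fed animal of this lineage lay above every chow-fed one, by a mean of 0.53 (SE 0.12, interval 0.28 to 0.78, 1.44-fold), and by 0.63 without high-fat/high-fat replicate 4. The difference between lineages was 0.55 log2 (SE 0.16, interval 0.21 to 0.88), given with no test because the gene was picked on the own diet and the high-fat lineage enters both. Without high-fat/high-fat replicate 4 it was 0.65. Acot1 read dimly, from 29.6 to 79.0 deposited units over all animals, so the offset of 16 compresses its changes. The ratio of mean deposited intensities in the high-fat lineage was 1.87 (59.4 against 31.9), and in the chow lineage it was 0.926 (42.2 against 45.6) on that same scale. All genes shifted on the deposited scale by a median of 0.11 log2 in the high-fat and -0.13 in the chow lineage. With an offset of 1 the high-fat-lineage difference was 0.71, and with an offset of 64 it was 0.30. The difference between lineages was 0.74 and 0.30 with these offsets, and 0.45 with the well column in the fit. Within columns 5, 7 and 9 the high-fat-lineage difference was 0.47, 0.15 and 0.76. In the chow lineage it was 0.12 and -0.044 in columns 5 and 7. The sign of the chow-lineage difference turned under 7 of 23 alternatives.

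Acot2 (probe set 10885851), the mitochondrial copy, was high in some high-fat-fed animals of the chow lineage and in all those of the high-fat lineage. The log2 level was 10.01, 9.68, 9.79, 9.88 and 9.96 in chow/chow and 10.61, 10.04, 9.87, 10.38 and 9.95 in chow/high-fat animals. Of the latter, 3 lay above the chow-fed range and 2 within it. It was 9.65, 9.76, 9.53 and 9.36 in high-fat/chow animals and 10.01, 10.43, 10.22 and 9.90 in high-fat/high-fat animals, without overlap. The own-diet difference was 0.31 (SE 0.13, interval 0.036 to 0.58) in the chow lineage and 0.57 (SE 0.15, interval 0.26 to 0.87, 1.48-fold) in the high-fat lineage. The lineages differed by 0.26 in this response (SE 0.19, interval -0.15 to 0.67, limma adjusted p = 0.811). That difference was 0.54 on the deposited scale, where all genes shifted by a median of 0.24. The own-diet differences on that scale were 0.16 in the chow and 0.70 in the high-fat lineage, beside median shifts of -0.13 and 0.11 over all genes. Without high-fat/high-fat replicate 4 the high-fat-lineage difference was 0.65 and the difference between lineages 0.34. Within columns 5 and 7 the chow-lineage difference was 0.64 and 0.16, and within columns 5, 7 and 9 the high-fat-lineage difference was 0.58, 0.25 and 0.86. Whether RNA of one copy also binds the probes of the other was not tested, so the split between Acot1 and Acot2 is uncertain.

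The other thioesterases and Nudt19 showed small own-diet differences with intervals that included 0 when averaged over the lineages. The peroxisomal hydrolase Nudt19 (10721112) differed by 0.029 (SE 0.066, interval -0.11 to 0.17). Acot8 (10851656), which acts on many peroxisomal acyl-CoAs, differed by -0.024 (SE 0.067, interval -0.16 to 0.12). Acot9 (10938077) differed by -0.083 (SE 0.059, interval -0.21 to 0.041), with -0.20 (SE 0.088, interval -0.38 to -0.013) in the high-fat lineage, where the groups overlapped. Acot13 (10795108), which works with a phosphatidylcholine transfer protein, differed by -0.024 (SE 0.067, interval -0.16 to 0.12). Averaged over the lineages, 4 of 7 genes were higher and 3 lower, with a median of 0.029 log2 against -0.0028 over all genes. As a description only, 1 of the 7 (Nudt7, picked for this rise) and 0.0158% of all genes lay under a limma adjusted p of 0.05, and within either lineage alone 0 of the 7 and 0% of all genes did. In the high-fat lineage 3 of 7, Nudt7, Acot1 and Acot2, were higher without overlap, against 2.06% of all genes; nothing is read from these counts, since the choice of genes used the own diet.

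Markers of other fibres and cells were read beside these values. In the high-fat lineage 7 of 7 slow-fibre markers were higher with the own high-fat diet, by a median of 0.57 log2, as were Nudt7, Acot1 and Acot2. In the chow lineage 7 of 7 were lower, by a median of -0.33, while Nudt7 and Acot2 were higher and Acot1 differed by -0.014. The difference between lineages in this response was above 0 for 7 of 7 slow-fibre markers, with a median of 0.86 log2. It was 0.55 for Acot1, 0.26 for Acot2 and -0.0039 for Nudt7. No slow-fibre marker passed in these comparisons. Among 6 tested fat-cell markers 4 were higher in the chow lineage (median 0.11) and 1 in the high-fat lineage (median -0.14), and none passed. The summed level of 7 fat-cell markers was 562 to 766 in chow/chow, 642 to 867 in chow/high-fat, 609 to 644 in high-fat/chow animals and 483 to 668 in high-fat/high-fat, and none was at 0. With the own high-fat diet 5 of 5 fibroblast markers were lower in both lineages (medians -0.25 in the chow and -0.19 in the high-fat lineage), with Col1a1, a collagen chain, at -0.40 on average. Their summed level was 6179 to 8471 in chow/chow, 4751 to 7317 in chow/high-fat, 6455 to 8337 in high-fat/chow animals and 5687 to 6879 in high-fat/high-fat. Of 5 leukocyte markers 4 were lower in the chow lineage and 5 in the high-fat lineage (medians -0.14 and -0.18), with sums of 486 to 651, 465 to 590, 527 to 646 and 479 to 577 in the same order of groups. Red-cell markers were higher in both lineages, 3 of 3 (medians 0.35 and 0.12), with sums of 900 to 1696, 693 to 3824, 903 to 1852 and 743 to 3313. None of these markers passed or was at 0. The part of fibre type and of these cells in the results was not tested.

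**Figure D2:**
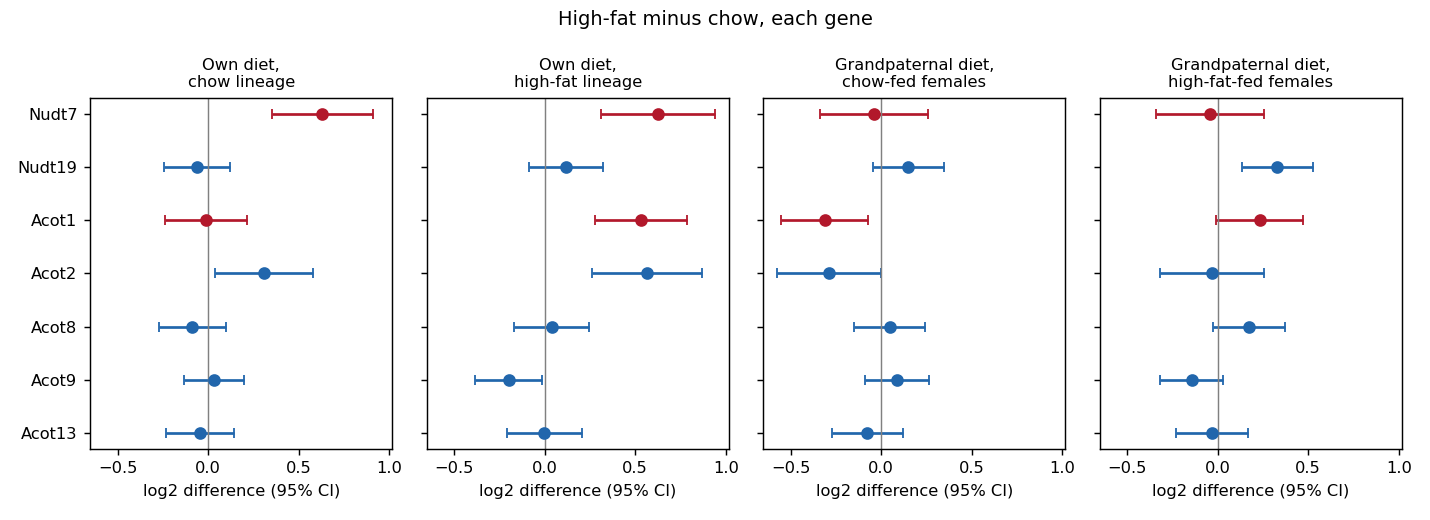
Log2 differences, high-fat minus chow, with 95% confidence intervals are plotted for the 7 genes in the 4 comparisons of 2 groups; Nudt7 and Acot1, picked for their rise with the own diet, are in red. Intervals for the own diet are a description with no test, because the choice of genes used that diet. For the grandpaternal diet the intervals of Nudt7 span 0, whereas that of Nudt19 lies above 0 in high-fat-fed females.

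The diet of the grandfather was compared next, at each own diet, with tests adjusted over all 12642 genes. This comparison asked whether lineage leaves a mark on the enzymes apart from what the female ate. No gene of the 7 passed in either comparison or in their average. In chow-fed females 1 of 12642 genes passed (0.00791%), in high-fat-fed females 0 (0%), and in the average over own diets 25 (0.198%). At an unadjusted p of 0.05, limma had 2 of the 7 in chow-fed females (Acot1 and Acot2), against 8.75% of all genes. It had 1 in high-fat-fed females (Nudt19, 13.3% of all genes) and the same 1 in the average (14.6%). The median of the 7 was -0.038, -0.030 and -0.040 log2 in these comparisons, against -0.0017, 0.0011 and -0.0027 over all genes.

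Nudt19 had the smallest p among the 7 for the grandpaternal diet. Its log2 level in high-fat-fed females was 9.23, 8.96, 9.19, 9.18 and 9.04 in the chow lineage and 9.28, 9.46, 9.50 and 9.56 in the high-fat lineage. The groups did not overlap, as was so for 2.37% of all genes in that direction. The difference was 0.33 log2 (SE 0.093, interval 0.13 to 0.52, 1.26-fold, limma adjusted p = 0.146) and was not called. In chow-fed females the level was 9.29, 9.19, 9.05, 9.23 and 9.15 in the chow lineage and 9.24, 9.58, 9.44 and 9.06 in the high-fat lineage. These groups overlapped, with 2 of 4 high-fat/chow animals above the chow/chow range, and differed by 0.15 (SE 0.093, interval -0.046 to 0.34, adjusted p = 0.685). The average over own diets was 0.24 (SE 0.066, interval 0.10 to 0.38, adjusted p = 0.106). Weighting arrays by quality gave 0.25 with an adjusted p of 0.0406, and over all alternatives of the average the adjusted p ran from 0.0406 to 0.253. On the deposited scale, where all genes shifted by a median of 0.18, the difference in high-fat-fed females was 0.57 (limma adjusted p = 0.0143). On that scale 1689 of all genes passed, against 0 after normalization. The adjusted p ran from 0.0143 to 0.705 over the alternatives. Within columns 5 and 7 the difference was 0.29 and 0.49 in high-fat-fed females, each with 1 animal of the high-fat lineage. Within columns 5, 7 and 9 it was 0.28, 0.19 and -0.089 in chow-fed females, with 1 animal a group in columns 7 and 9. Some well labels repeat between the lineages, so a shared column need not be a shared batch. Without high-fat/high-fat replicate 4, the highest of its group, the difference in high-fat-fed females was 0.29 (adjusted p = 0.381) and the average over own diets 0.22 (adjusted p = 0.192). In high-fat-fed females 3 of 7 slow-fibre markers were higher with the grandpaternal high-fat diet and 4 lower, with a median of -0.11.

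Acot1 and Acot2 were lower in chow-fed granddaughters of high-fat-fed males. For Acot1 all 4 high-fat/chow animals (5.51 to 5.68) lay below all 5 chow/chow animals (5.82 to 6.05), as was so for 1.75% of all genes in that direction. The difference was -0.31 log2 (SE 0.11, interval -0.55 to -0.072, limma adjusted p = 0.475) and was not called. It was -0.38, -0.15 and -0.30 within columns 5, 7 and 9, with 1 animal a group in columns 7 and 9. The high-fat/chow animals also enter the own-diet difference for which Acot1 was picked, so its value here is not independent of that choice. Acot2 differed by -0.29 (SE 0.14, interval -0.58 to -0.00036, adjusted p = 0.570), with 3 of 4 high-fat/chow animals below the chow/chow range. Within columns 5, 7 and 9 its difference was -0.21, -0.14 and -0.60, again with 1 animal a group in columns 7 and 9. In the same comparison 7 of 7 slow-fibre markers were lower, by a median of -1.01 log2, and none passed; their part in the result was not tested. In high-fat-fed females Acot1 differed by 0.23 (SE 0.11, interval -0.0074 to 0.47, adjusted p = 0.393) and Acot2 by -0.030 (SE 0.14, interval -0.32 to 0.26, adjusted p = 0.946). Without high-fat/high-fat replicate 4 these were 0.34 (adjusted p = 0.354) and 0.051 (adjusted p = 0.937). On the deposited scale the Acot1 difference there was 0.37 (limma adjusted p = 0.0437). All genes shifted by a median of 0.18 on that scale, and 1689 of them passed. Over the alternatives the adjusted p of Acot1 ran from 0.0437 to 0.734. The high-fat-fed animals enter the own-diet difference for which Acot1 was picked too, so its values here are not independent of that choice either.

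Nudt7 showed little difference by lineage, -0.038 (SE 0.14, interval -0.34 to 0.26, limma adjusted p = 0.963) in chow-fed and -0.042 (SE 0.14, interval -0.34 to 0.26, adjusted p = 0.928) in high-fat-fed females. These intervals leave room for changes of 0.34 log2 downwards. The direction in high-fat-fed females was not stable, at 0.10 without high-fat/high-fat replicate 4 (adjusted p = 0.845) and 0.21 on the deposited scale, within a range of adjusted p of 0.299 to 0.994 over the alternatives. Acot8 ran from 5.74 to 6.17 in chow/chow, 5.68 to 5.99 in chow/high-fat, 5.76 to 6.11 in high-fat/chow animals and 5.93 to 6.11 in high-fat/high-fat. All neighbouring groups overlapped, and its difference in high-fat-fed females was 0.17 (SE 0.094, interval -0.026 to 0.37, adjusted p = 0.443). A probe set shared by Zswim3 and Acot8, which was not tested, differed there by 0.0011. In chow-fed females that probe set differed by 0.15, against 0.046 for the tested one. Acot9 ran from 7.58 to 7.84, 7.65 to 7.90, 7.58 to 7.91 and 7.45 to 7.78 in the same order, with overlap throughout and -0.14 (SE 0.084, interval -0.32 to 0.032, adjusted p = 0.474) in high-fat-fed females. Acot13 ran from 10.02 to 10.26, 9.74 to 10.24, 9.91 to 10.18 and 9.87 to 10.22, and its average over own diets was -0.055 (SE 0.067, interval -0.19 to 0.085, adjusted p = 0.747). For 5 genes the interaction of both diets could be tested, and 0 passed in limma (0 at an unadjusted p of 0.05), where 0% of all genes passed and 6.83% had an unadjusted p under 0.05. The largest interaction among the 5 was that of Acot2, 0.26.

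Animals also varied around their group means, and Nudt7, Acot1 and Acot2 varied alike. After each group mean was subtracted, Pearson's r over the 18 arrays was 0.878 between Nudt7 and Acot1 (Spearman's rho 0.837), 0.659 between Nudt7 and Acot2 (rho 0.740) and 0.718 between Acot1 and Acot2 (rho 0.682). Without the 2 animals farthest from the median of the gene named first, r was 0.796, 0.549 and 0.615. Nudt19 gave an r of 0.038 with Nudt7 and -0.018 with Acot1, and of -0.530 with Acot9 (rho -0.575). These values are descriptions with no test, and the points share the array and its normalization.

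**Figure D3:**
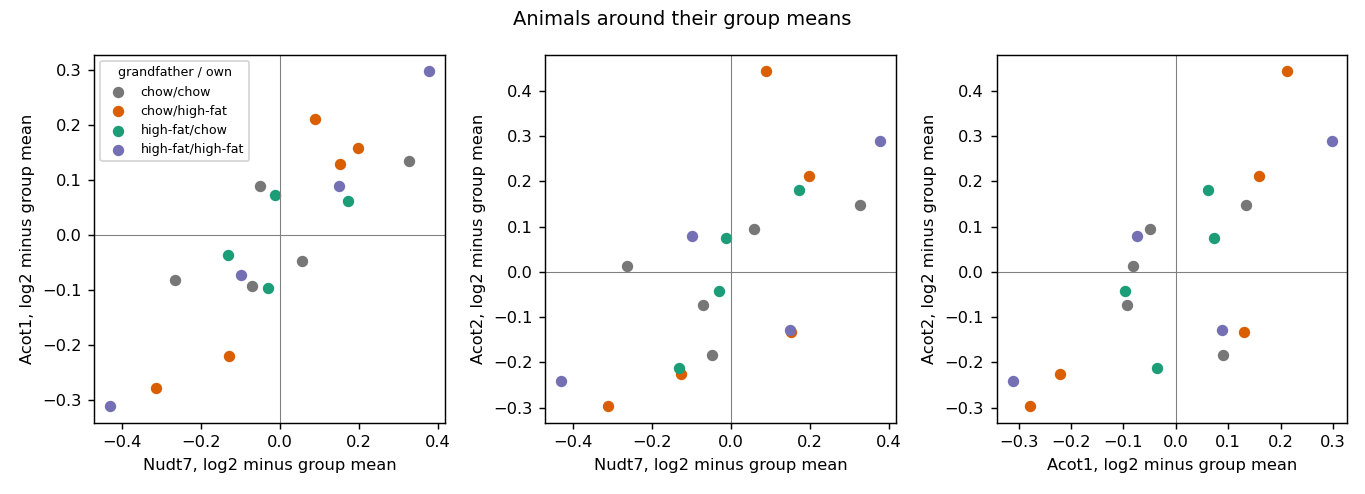
Each point is 1 animal, plotted as its log2 level minus its group mean for pairs of Nudt7, Acot1 and Acot2, coloured by group. Animals high in Nudt7 for their group tend to be high in Acot1 (r = 0.878) and, with more scatter, in Acot2 (r = 0.659).

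The genes most like each of these 3 were read from all 12642, as a description with no test. The highest of so many values of r on 18 arrays can be large by chance. Nudt7 and Acot1 were picked for their rise with the own diet. Over the 18 arrays other genes that rose with it can rank high for that reason alone. Over the 18 arrays, Nudt7 was most like Eci2 (r = 0.928), an enoyl-CoA isomerase of peroxisomes and mitochondria, Lipe (0.906), the hormone-sensitive lipase, Aqp7 (0.898), a glycerol channel, Mlycd (0.890), which removes malonyl-CoA, and Ech1 (0.889), a dienoyl-CoA isomerase. Around group means the 5 nearest were Lipe (0.898), Acot1 (0.878), Eci2 (0.853), the hypoxia-inducible factor Epas1 (0.844) and Ech1 (0.781). Acot1 was most like Plin5 (0.788), a lipid droplet protein, followed by Acot2 (0.776), Cyp2s1 (0.772), Epas1 (0.771) and Lipe (0.767). Around group means its nearest were Nudt7 (0.878), Epas1 (0.843), Lipe (0.839), Eci2 (0.828) and Sfrp5 (0.815). Acot2 was most like Hsdl2 (0.890), the beta-oxidation subunit Hadhb (0.871), the carnitine acyltransferase Cpt2 (0.865), the electron carrier enzyme Etfdh (0.859) and Aqp7 (0.857). Around group means, however, its nearest were Tjp1 (0.890), Igfbp5 (0.840), Pgd (0.810), Arhgap27 (0.808) and Mettl15 (0.805).

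Other genes around coenzyme A were described from lists grouped by function, without the 8 genes above. All of these lists were chosen with earlier results of these animals known, so their directions are not independent evidence. Of 14 other thioesterases 6 were tested, with 3 higher and 3 lower for the own diet averaged over lineages, a median of 0.011 log2 and 0 past the threshold. Acot5, further along the cluster on chromosome 6, differed by 0.24 (SE 0.082, limma adjusted p = 0.579) and the cytosolic Acot7 by 0.19 (SE 0.073, adjusted p = 0.706). A probe set shared by Acot3 and Acot4, which lie between Acot1 and Acot5, was not tested and differed by 0.011. Hibch, which releases coenzyme A in valine breakdown, differed by -0.074 (SE 0.078, adjusted p = 0.913).

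Of 15 genes of coenzyme A synthesis and transport, 14 were tested, 9 were higher and 5 lower, with a median of 0.030 and 0 past the threshold. Slc25a42, the carrier that brings coenzyme A into mitochondria, differed by 0.31 (SE 0.071, adjusted p = 0.201). The pantothenate kinase Pank2, at the entry to synthesis, differed by 0.12 (SE 0.074, adjusted p = 0.815), and Ppcdc, the decarboxylase of the pathway, by -0.10 (SE 0.070, adjusted p = 0.836). The peroxisomal coenzyme A carrier Slc25a17 differed by 0.016 (SE 0.062, adjusted p = 0.980). Of 20 other Nudix hydrolases 14 were tested, 4 were higher and 10 lower, with a median of -0.032 and 0 past the threshold. Nudt18, Nudt16l1 and Nudt2 had the smallest p there, with differences of -0.12, -0.099 and 0.10 (adjusted p = 0.760, 0.815 and 0.841).

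Of 11 genes that bind acyl-CoA or move acyl groups to carnitine, 9 were tested and 7 were higher, with a median of 0.20 and 0 past the threshold. The carnitine acyltransferases Crat, Cpt1b and Cpt2 differed by 0.19, 0.20 and 0.29 (adjusted p = 0.0985, 0.0985 and 0.333). Of 24 peroxisomal genes 18 were tested, 13 were higher and 5 lower, with a median of 0.036 and 0 past the threshold. Pxmp4, Cat and Eci2 had the smallest p, with differences of 0.31, 0.28 and 0.38 (adjusted p = 0.0709, 0.166 and 0.216). Of 19 fatty-acid-responsive genes 16 were tested and 16 were higher, with a median of 0.32. That list too was drawn up with earlier results of these animals known, so its direction is not independent evidence. Of its genes 1 rose past the threshold, the dienoyl-CoA reductase Decr1 (0.59, SE 0.094, adjusted p = 0.0328), while Plin5 differed by 0.82 (SE 0.16, adjusted p = 0.0985). Decr1 stayed past the threshold in 13 of 31 alternatives, 3 of them among the 18 fits without 1 animal, with adjusted p from 0.00975 to 0.114. In the 3 grandpaternal comparisons and the interaction 0 genes of these 6 lists passed. Some genes stand in 2 lists, such as Cpt1b and Ech1.

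**Figure D4:**
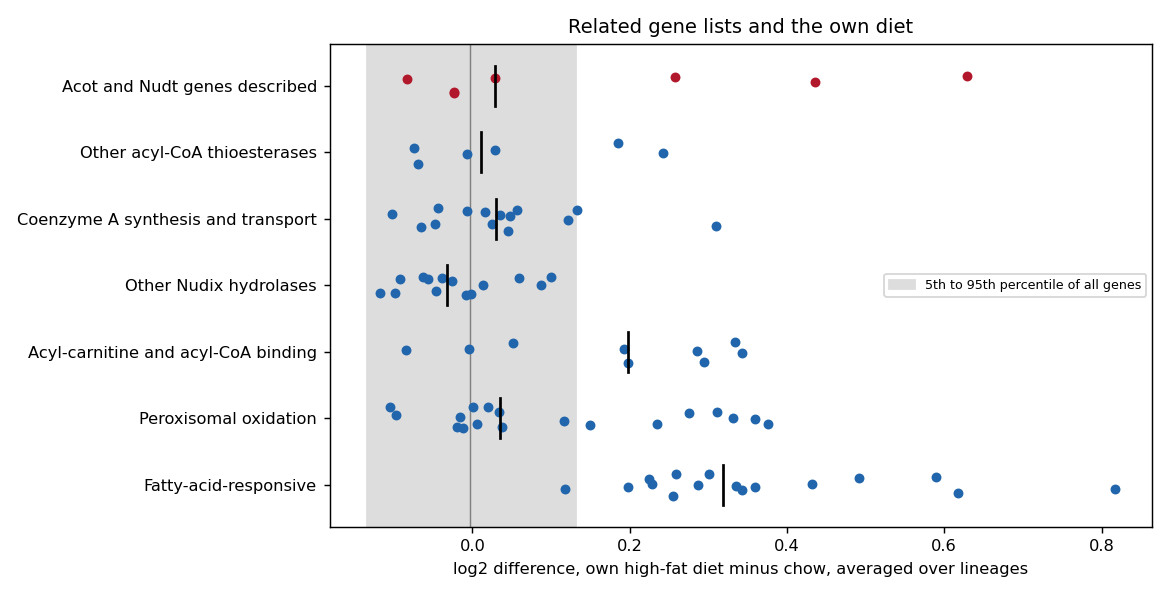
Each point is the own-diet log2 difference of 1 gene, averaged over lineages, for the 7 genes described (red) and the 6 related lists (blue), with list medians as black bars and the 5th to 95th percentile of all genes (-0.13 to 0.13) in grey. All 16 tested fatty-acid-responsive genes lie right of 0, whereas the other Nudix hydrolases all lie within the grey band. The lists were chosen with earlier results of these animals known, so these directions are not independent evidence.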

How the data were processed

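RNA of each muscle, 200 ng per array, was labelled for Affymetrix whole-transcript arrays, per the labels' protocols. The deposited table holds a linear intensity for 20917 probe sets on 18 arrays, made by the authors with Affymetrix Expression Console and PLIER, per the submitters' processing notes; versions, settings and genome build are not given in the sources used here. Probe set genes came from the supplied platform annotation: 18197 probe sets had 1 symbol, 960 several and 1760 none. Probe sets with several symbols were left out, including 1 that lists Acot8 beside another gene. Entrez identifiers of 18052 matched RefSeq (GRCr8), which changed 0 symbols.

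Array medians of log2(intensity + 16) differed by 0.34, above the limit of 0.1, so arrays were quantile normalized (limma 3.58.1, R 4.3.3). The probe set of highest mean was kept per gene, and genes were tested if their mean exceeded 5.28 log2, the 25th percentile. All 18 arrays entered a group-means model (lmFit, eBayes, two-sided) with Benjamini-Hochberg adjustment within each of 7 comparisons at 0.05. The fit was tested on simulated data. Over 32 pairs of arrays within groups, at most 0.0908% of values were identical, so none was treated as a copy. The precision is limited by the number of arrays.

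The genes and lists were chosen with earlier results of these data known. Genes named are the 7 measured, the 3 list genes of smallest p for the own diet, any list gene past the threshold and the 5 most like Nudt7, Acot1 and Acot2; Slc25a17 was added for its role. Promoter motifs were searched in Python 3.11.15, and the pair beginning with GGGTCA was added after the Acot8 sequence was seen. Alternatives covered scaling, offset, filter, variance model, array weights, well column, neighbouring animal numbers as a random block, the array median and each array left out.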

Additional observations from a re-analysis of the deposited data

How the results depend on the processing

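For the own diet averaged over lineages, the number of the 7 genes past the threshold was 1, Nudt7. Since that gene was picked for this rise, the count and its changes are a description with no test. It was 0 with an offset of 1, 0 when the fit included each array's deposited median and 0 when the 2 arrays with the lowest medians were dropped. With the well column as a block it was 2 (Nudt7 and Acot2), where 15 of all genes passed against 2 without that block. Leaving out each array in turn gave 0 to 1, with Nudt7 past the threshold in 4 of 18 such fits. The count changed under 18 of 31 alternatives. For the grandpaternal diet in high-fat-fed females the number was 0. It was 2 (Nudt19 and Acot1) on the deposited scale, where 1689 of all genes passed against 0 after normalization. For that diet averaged over own diets it was 0, and 1 (Nudt19) with array weights. For every comparison but the first, leaving out single arrays gave 0. Of 49 differences of the 7 genes, 28 kept their sign under every alternative run, among them Nudt7 and Acot2 for the own diet in both lineages, Acot1 in the high-fat lineage and Nudt19 for the grandpaternal diet at both own diets. With a filter at the 50th percentile Acot1 and Acot8 were not tested. The titles carry no replicate numbers shared between groups, so no animals were paired by replicate number. With animals of 1 lineage whose numbers lie 3 or fewer apart as a random block, 1 of the 7 genes (Nudt7) passed for the own diet averaged over lineages, with 14 genes in all against 2 without that block, and 0 of the 7 in each other comparison.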
